A study of Mus musculus with 9 samples.

Results

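The α- and β-tubulins are the building blocks of microtubules, and 10 of their genes were followed in C2C12 myotubes given palmitic acid with or without carnitine. They were taken by symbol from 22831 genes: 6 β-tubulins (Tubb3, Tubb6, Tubb5, Tubb2a, Tubb2b and Tubb4b) and 4 α-tubulins (Tuba1b, Tuba1a, Tuba1c and Tuba4a). All 10 were among the 12548 genes that passed the filter on low counts. The set was drawn up with the palmitic acid comparison already known, in which Tubb3 had the smallest p-value, so the values of that comparison are given below as a description and without a test.

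C2C12 is a mouse myoblast line that fuses into multinucleated myotubes in low serum. All cells were wild type and were differentiated for 5 to 7 days in 2% horse serum. The control group received no fatty acid, a second group received palmitic acid, a saturated fatty acid, at 200 µM, and the last group received that dose together with carnitine at 1000 µM. Each group held 3 stranded mRNA libraries, and no label says whether these came from separate cultures, so p-values measure only the spread between these libraries, which may be technical.

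Microtubules are hollow polymers of α/β-tubulin dimers along which kinesins and dynein carry cargo. During muscle differentiation they are rebuilt from an array around the centrosome into arrays along the fiber that start at the nuclear envelope and Golgi elements. Vertebrate tubulin isotypes differ mainly in their acidic C-terminal tails, where tyrosine removal, glutamylation and other modifications take place. Cells also adjust tubulin mRNA to the pool of free dimers: when free tubulin is in excess, TTC5 binds the first residues of newly made tubulin on the ribosome and the mRNA is degraded.

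The first bases of the coding sequence, which encode the residues that TTC5 reads, are nearly the same within each family. The first 30 coding bases are shown for Tubb3, for the broadly expressed Tubb5 and for the α-tubulin Tuba1b, with the first 4 codons in capitals (GENCODE M21, GRCm38).
Tubb3: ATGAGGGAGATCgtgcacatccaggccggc
Tubb5: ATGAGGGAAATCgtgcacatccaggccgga
Tuba1b: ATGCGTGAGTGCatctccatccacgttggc

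The last 60 coding bases, stop codon included, encode the tails and show how far the β-tubulins differ in this stretch. Capitals mark bases that differ from Tubb5, or lie opposite a gap, in the alignment of the whole coding sequences.
Tubb5: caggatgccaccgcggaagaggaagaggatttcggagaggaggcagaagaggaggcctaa
Tubb3: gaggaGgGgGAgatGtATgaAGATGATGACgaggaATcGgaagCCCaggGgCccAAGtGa
Tubb2a: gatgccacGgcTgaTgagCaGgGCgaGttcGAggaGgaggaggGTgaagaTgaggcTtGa
Tubb2b: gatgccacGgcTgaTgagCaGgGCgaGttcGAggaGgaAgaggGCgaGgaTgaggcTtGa
Tubb4b: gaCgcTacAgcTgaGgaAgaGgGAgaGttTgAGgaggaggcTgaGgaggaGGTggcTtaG

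By this marking the Tubb3 tail differed from Tubb5 at 29 of its 60 bases, against 16 for Tubb2a, 18 for Tubb2b and 20 for Tubb4b. Over the whole coding sequence Tubb3 was 81.4% to 86.0% identical to the other β-tubulins, and the longest run of bases it shared with any of them was 47. Tubb2a and Tubb2b, by contrast, were 96.5% identical and shared a run of 551 bases. How reads that fit more than 1 gene were counted is not given in the sources used here, so the split between Tubb2a and Tubb2b is uncertain.

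The coding sequences of Tuba1a, Tuba1b and Tuba1c were 97.1% to 98.3% identical, with shared runs of up to 468 bases, so their counts are uncertain relative to each other. The genes of the close copies lie near each other: Tubb2a and Tubb2b on chromosome 13, and Tuba1a, Tuba1b and Tuba1c on chromosome 15. Tubb3 (ENSMUSG00000062380) lies apart on chromosome 8, from 124138163 to 124148754 on the + strand (GRCm39, as deposited).

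Total counts ranged from 2.31 to 5.14 M per library. The libraries differed in how many counts fell on genes that lie opposite other genes. This was measured as a strand ratio, which sets the counts of protein-coding genes that have no annotated gene opposite any exon over those of noncoding genes lying opposite a protein-coding gene. Control replicates 1, 2 and 3 had ratios of 0.691, 0.638 and 1.19. The palmitic acid replicates, in the same order, had 3.54, 1.23 and 1.23, and the replicates with palmitic acid + carnitine had 0.841, 0.660 and 0.707. Control replicate 3 therefore lay close to palmitic acid replicates 2 and 3, and palmitic acid replicate 1 stood apart from every other library. Since the ratio moves with the groups, results are also given between libraries of like ratio and in a fit with the ratio as a covariate. A further fit was restricted to protein-coding genes that lack an opposite-strand gene, such as Tubb3, Tubb6, Tubb5, Tubb2a, Tubb2b, Tuba1a and Tuba1c. The cells are labelled as myoblasts, and all 12 myotube markers passed the filter, with summed levels of 9933 to 13191 counts per M counts (CPM, TMM-scaled) in control, 14378 to 14627 in palmitic acid and 11217 to 12327 in palmitic acid + carnitine.

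Tubb3, the class III β-tubulin best known as a marker of neurons, was low in control myotubes and had the highest levels with palmitic acid. Its counts were 9, 14 and 24 in control replicates 1, 2 and 3, which correspond to 4.42, 6.00 and 6.91 CPM. With palmitic acid the counts were 193, 83 and 66, or 24.9, 23.0 and 18.9 CPM. With palmitic acid + carnitine they were 38, 29 and 26, or 13.1, 13.7 and 11.04 CPM. The 3 groups did not overlap: every palmitic acid library lay above every carnitine library, and every carnitine library above every control. Group means were 5.78 ± 1.26, 22.3 ± 3.06 and 12.6 ± 1.40 CPM (SD, n = 3) in control, palmitic acid and palmitic acid + carnitine.

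**Figure D1:**
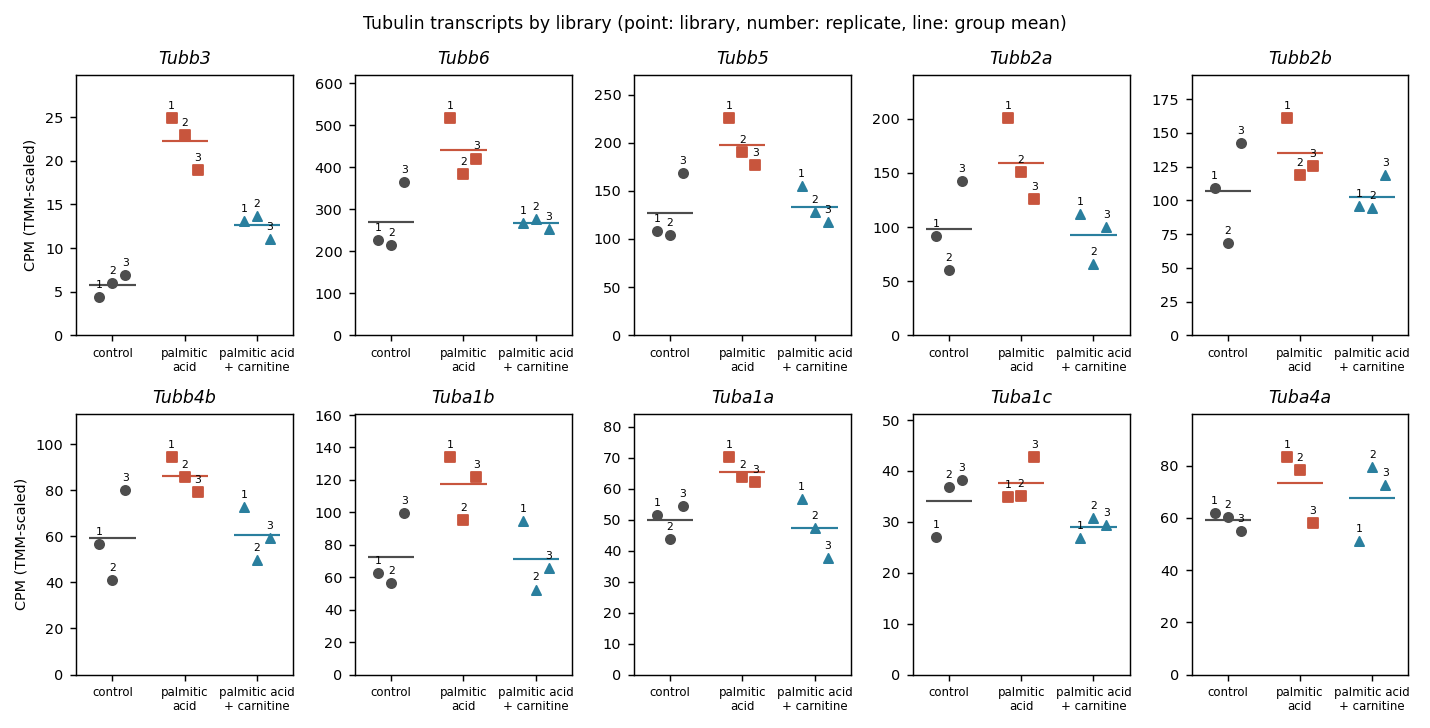
Level of each tubulin gene (y axis, TMM-scaled CPM from 0) in the 9 libraries (points numbered by replicate; circles control, squares palmitic acid, triangles palmitic acid + carnitine), with a line at each group mean. The 3 groups of Tubb3 are apart from each other, with controls at 4.42 to 6.91 CPM. Control replicate 3 is the highest control for Tubb3 and for all others but Tuba4a.

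The log2 fold change of Tubb3 with palmitic acid against control was 1.92 ± 0.32 (SE), a 3.79-fold difference, which was above that of 99.7% of the 12548 genes in this comparison. This is the comparison the set was chosen on. With the strand ratio as a covariate the value was 1.70 ± 0.46, and in the restricted fit it was 1.65 ± 0.35. Without control replicate 3 and palmitic acid replicate 1 it was 2.00 ± 0.46. In bulk RNA, more cells expressing Tubb3 and more Tubb3 RNA per cell cannot be told apart.

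The other 9 tubulins also had higher mean levels with palmitic acid, by smaller amounts. Their log2 fold changes ran from 0.14 (Tuba1c) to 0.71 (Tubb6), with a median of 0.54. The median over all 12548 genes was 0.06, that over genes lacking an opposite-strand gene was 0.27, and that over noncoding genes opposite a protein-coding gene was -0.81. In the restricted fit, where the median of all genes was -0.01, the 6 other tubulins ran from -0.14 to 0.44 with a median of 0.23. Over the whole table edgeR's quasi-likelihood test with Benjamini-Hochberg adjustment called 0 of 12548 genes (0%) in this comparison, with 2453 genes at an unadjusted p under 0.05 and 474 calls (3.78%) by DESeq2.

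**Figure D2:**
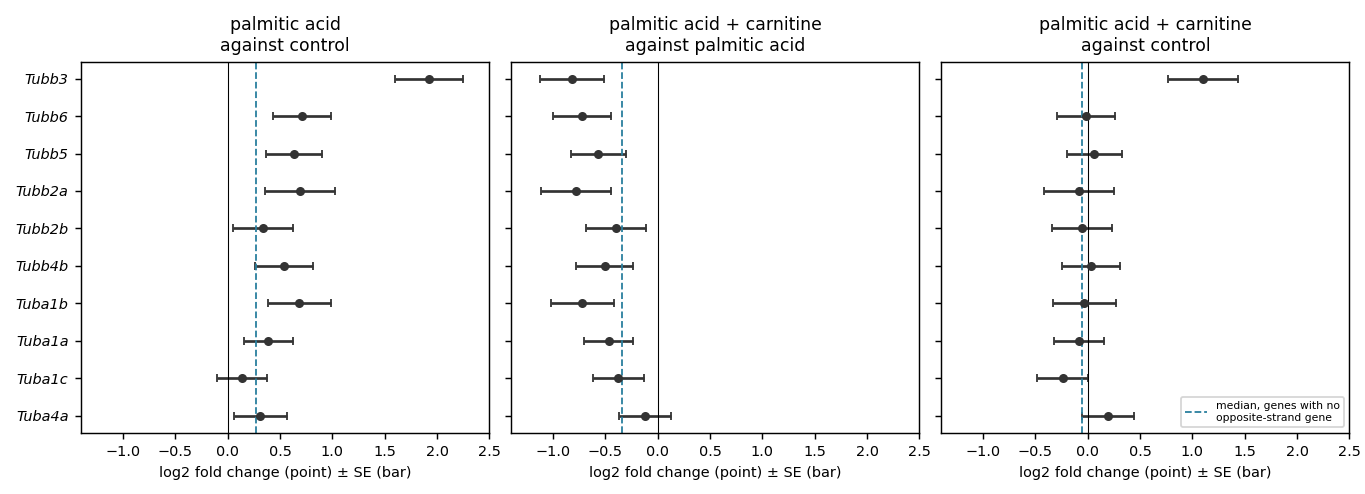
log2 fold change (x axis) of each tubulin gene in the 3 comparisons, as points with bars of ± 1 SE from the fit of all 9 libraries. The dashed line is the median over genes lacking an opposite-strand gene (0.27, -0.34 and -0.06), and Tubb3 is the gene farthest from it in the comparisons against control, at 1.92 and 1.10.

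Tubb6, the class V β-tubulin that is induced in differentiating and regenerating muscle, was the most abundant of the set. Controls 1, 2 and 3 had 226, 215 and 365 CPM of Tubb6, the palmitic acid libraries had 517, 383 and 421 CPM, and those with palmitic acid + carnitine had 268, 277 and 253 CPM, in replicate order. The palmitic acid libraries were all above the controls, but control replicate 3 lay much nearer to them than to the other controls. Its log2 fold change with palmitic acid was 0.71 ± 0.27, and 0.31 ± 0.18 with the ratio as a covariate.

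Tubb5, the class I β-tubulin found in most cells, had 109, 105 and 169 CPM in control replicates 1, 2 and 3, 226, 190 and 177 CPM with palmitic acid, and 155, 128 and 117 CPM with palmitic acid + carnitine. Its palmitic acid libraries were also above all controls, by a small margin over control replicate 3, and its log2 fold change was 0.63 ± 0.26, or 0.26 ± 0.20 with the covariate. Tubb2a, a β-tubulin abundant in brain, had 91.9, 60.01 and 143 CPM in control, 201, 151 and 126 CPM with palmitic acid, and 112, 65.6 and 99.8 CPM with palmitic acid + carnitine. Here control replicate 3 lay inside the range of the palmitic acid libraries, and the log2 fold change of 0.69 ± 0.33 was 0.09 ± 0.24 with the covariate.

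Tubb2b, its near copy, had 68.2 to 143 CPM in control and 119 to 161 CPM with palmitic acid, so these groups overlapped. Its log2 fold change of 0.34 ± 0.29 turned to -0.080 ± 0.23 with the covariate. Tubb4b, a β-tubulin of many tissues that is also built into cilia, had 41.1 to 80.1 CPM in control and 79.1 to 94.3 CPM with palmitic acid, again with an overlap through control replicate 3. Its log2 fold change was 0.54 ± 0.27, and 0.19 ± 0.25 with the covariate.

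Among the α-tubulins, Tuba1b had 62.4, 56.2 and 99.4 CPM in control replicates 1, 2 and 3, 134, 95.5 and 122 CPM with palmitic acid, and 94.9, 52.4 and 65.8 CPM with palmitic acid + carnitine. Its log2 fold change with palmitic acid was 0.69 ± 0.30, with overlapping groups. Tuba1a, an α-tubulin prominent in developing neurons, had 43.7 to 54.5 CPM in control and 62.2 to 70.2 CPM with palmitic acid, which did not overlap, and a log2 fold change of 0.39 ± 0.23. Tuba1c showed 27.0 to 38.3 CPM in control and 35.0 to 42.7 CPM with palmitic acid. Tuba4a, the isotype made without a terminal tyrosine, showed 55.0 to 61.9 CPM and 58.2 to 83.2 CPM in these groups. The last 2 genes had the lowest log2 fold changes, at 0.14 ± 0.24 and 0.31 ± 0.25.

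Palmitic acid and control libraries did not overlap for 4 of the 10 tubulins, all higher with palmitic acid (Tubb3, Tubb5, Tubb6 and Tuba1a). Of all genes, 11.7% were higher without overlap in this comparison.

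Tubb3 and the other tubulins were also compared between single libraries of like strand ratio. Control replicate 3 had 6.91 CPM of Tubb3, and palmitic acid replicates 2 and 3, with nearly the same ratio, had 3.32-fold and 2.73-fold as much. The other 9 tubulins were at 0.831 to 1.42 of control replicate 3 in palmitic acid replicate 2, and at 0.878 to 1.23 in palmitic acid replicate 3. Within the control group, replicate 3 had 1.33 times the mean of replicates 1 and 2 for Tubb3, and 0.900 to 1.88 times for the others. These are single libraries, so the ratios have no replicate check. Across the 9 libraries the log2 levels of Tubb6, Tubb5, Tubb2a and Tuba1b followed the log2 ratio with Pearson correlations of 0.91, 0.89, 0.87 and 0.85, and Tubb3 with 0.64. Those of Tuba1c and Tuba4a were lower still, at 0.42 and 0.35. The correlations describe libraries that share their depth and their group, and the part of the strand ratio in the differences was not tested.

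**Figure D3:**
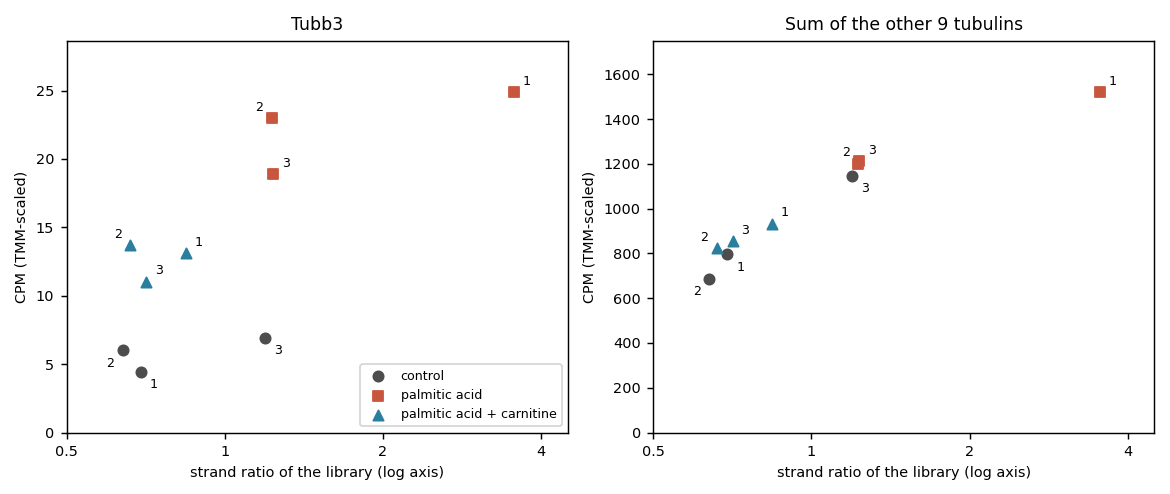
Level of Tubb3 (left) and summed level of the other 9 tubulins (right), in TMM-scaled CPM, against the strand ratio of the library (log axis), with points numbered by replicate. The other 9 sum to 1147 CPM in control replicate 3 and to 1201 and 1213 CPM in palmitic acid replicates 2 and 3 of like ratio, whereas Tubb3 is at 6.91 CPM in the former and at 23.0 and 18.9 CPM in the latter.

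The share of Tubb3 within the tubulins is a measure that a common shift of all 10 genes leaves alone. It uses the libraries the set was chosen on and is given as a description. Library differences were not common to all 10 genes. Control replicate 3 was at 1.33 times the mean of control replicates 1 and 2 for Tubb3 and at 0.900 to 1.88 times for the others. The part of the strand ratio in the share was not tested. Tubb3 took 0.553%, 0.867% and 0.599% of the counts of the 10 genes in control replicates 1, 2 and 3. It took 1.61%, 1.88% and 1.53% with palmitic acid and 1.39%, 1.63% and 1.28% with palmitic acid + carnitine. Controls lay below all treated libraries, while the palmitic acid and carnitine groups overlapped, with means of 1.67% ± 0.180 and 1.43% ± 0.184 against 0.673% ± 0.170 in control (SD, n = 3). The exact binomial (Clopper-Pearson) 95% intervals cover counting error only. They ran from 0.253% to 1.05% in control replicate 1, with 9 Tubb3 counts, and from 1.39% to 1.85% in palmitic acid replicate 1, with 193. In control replicate 2, with 14 counts, the interval ran from 0.475% to 1.45%. It overlapped those of palmitic acid replicates 1 and 3 and of every carnitine library. The interval of control replicate 1 overlapped those of carnitine replicates 1 and 3. That of control replicate 3, 0.384% to 0.890%, overlapped that of carnitine replicate 3, 0.835% to 1.86%.

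**Figure D4:**
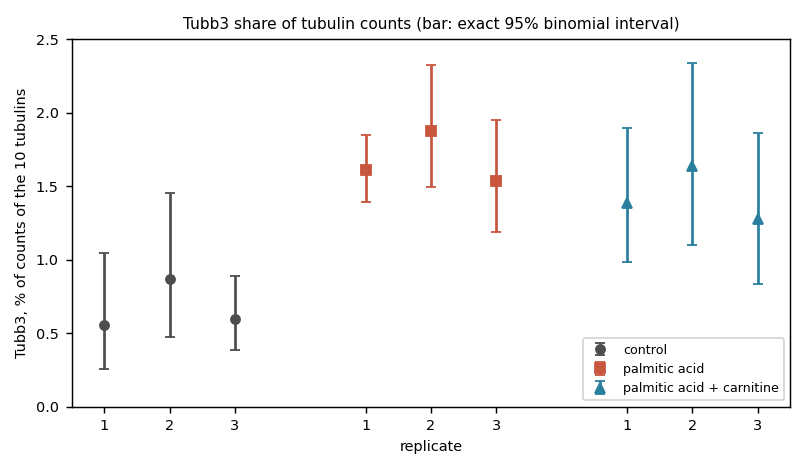
Tubb3 counts as a percentage of the counts of the 10 tubulin genes (y axis) in each library (x axis, replicates by group), with exact binomial 95% intervals as bars. Controls lie at 0.553% to 0.867%, and the palmitic acid and palmitic acid + carnitine libraries lie at 1.28% to 1.88%.

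Levels of different genes can be compared only per length, which the deposited FPKM values (fragments per kb of gene and per M counts) allow. In control, Tubb6 led with 105 ± 45.5 FPKM, followed by Tubb2a with 58.4 ± 31.4, Tubb2b with 44.2 ± 19.99, Tuba1b with 36.9 ± 16.3, Tubb5 with 36.3 ± 14.7, Tubb4b with 27.0 ± 12 and Tuba1a with 25.9 ± 5.50 FPKM (SD, n = 3). Neighbours in this order overlapped in range over the libraries, but Tubb6 was above Tubb2a in each of the 3 control libraries. Next came Tuba4a with 14.8 ± 0.812 FPKM and Tuba1c with 13.9 ± 3.58 FPKM, which overlapped with each other and, for Tuba1c, with Tubb4b, and Tubb3 was last with 2.91 ± 0.909 FPKM, below the range of every other member. Tubb3 had the lowest mean of the 10 in each group, at 14.5 ± 4.96 FPKM with palmitic acid and 6.07 ± 0.691 FPKM with palmitic acid + carnitine. With palmitic acid its range, 10.6 to 20.1 FPKM, overlapped those of Tuba1c, 16.1 to 23.1 FPKM, and Tuba4a, 16.5 to 33.9 FPKM, and with palmitic acid + carnitine it overlapped neither.

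The makeup of the β-tubulin pool was otherwise much the same in the 3 groups. Tubb6 made up 38.7% ± 3.17, 40.1% ± 2.23 and 38.2% ± 4.11 of the summed β-tubulin FPKM (SD, n = 3) in control, palmitic acid and palmitic acid + carnitine. Tubb2a made up 20.8% ± 2.60, 21.8% ± 2.27 and 19.8% ± 3.87, and Tubb5 made up 13.5% ± 1.32, 13.2% ± 0.573 and 13.9% ± 1.46 in the same order. For each of these genes the ranges of the 3 groups overlapped. Tubb3 made up 1.13% ± 0.351, 2.66% ± 0.280 and 2.36% ± 0.364, and Tubb2b 16.1% ± 2.08, 13.1% ± 0.498 and 15.6% ± 2.24. For Tubb2b the palmitic acid libraries lay just below all others, and its split from Tubb2a is uncertain. In the α-tubulin pool Tuba1b made up 39.2% ± 6.15, 46.1% ± 4.00 and 39.4% ± 7.82, with overlapping ranges.

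When carnitine was added to palmitic acid, all 10 tubulins had lower mean levels than with palmitic acid alone, and none passed the test. This comparison shares the palmitic acid libraries with the one the set was chosen on. For Tubb3 it is a description: the log2 fold change was -0.82 ± 0.30, and it was -0.56 ± 0.48 with the ratio as a covariate and -0.48 ± 0.32 in the restricted fit. The other 9 ran from -0.78 ± 0.33 (Tubb2a) to -0.12 ± 0.25 (Tuba4a) with a median of -0.51, where the median of all genes was -0.10 and that of genes lacking an opposite-strand gene was -0.34. Their adjusted p-values by edgeR's quasi-likelihood test with Benjamini-Hochberg adjustment over all genes were 0.155 (Tubb6) to 0.793 (Tuba4a).

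In this comparison 9 of the 10 tubulins, all but Tuba4a, were lower without overlap of the groups, where 18.3% of all genes were. The strand ratio of every palmitic acid library was also above that of every carnitine library. edgeR called 0 of 12548 genes (0%), with 3046 at an unadjusted p under 0.05 and 817 calls (6.51%) by DESeq2. Tubb6 had an adjusted p of 0.0491 by DESeq2. Without control replicate 3 and palmitic acid replicate 1, edgeR's adjusted p was 0.00174 for Tubb6 and 0.0493 for Tubb5. These are the lowest adjusted p-values of these genes over all alternatives, the highest being 1.00 with the covariate. That smaller fit called 1685 genes in this comparison. Its palmitic acid libraries had ratios of 1.23 and 1.23 and its carnitine libraries 0.660 to 0.841, so ratio and group cannot be told apart there. With the ratio as a covariate the log2 fold change of Tubb6 was -0.25 ± 0.20 and that of Tubb5 was -0.13 ± 0.22.

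Palmitic acid + carnitine and control could be compared with less difference in strand ratio, since the carnitine libraries at 0.660 to 0.841 lay close to control replicates 1 and 2. Tubb3 was 2.15-fold higher with palmitic acid + carnitine, with a log2 fold change of 1.10 ± 0.33 and higher values in 3 of 3 libraries than in any control. It did not pass the test over all genes, with an adjusted p of 1.00 by edgeR's quasi-likelihood test with Benjamini-Hochberg adjustment and an unadjusted p of 0.00551. This comparison shares the control libraries with the one the set was chosen on. Against the mean of control replicates 1 and 2, 5.21 CPM, the carnitine mean of 12.6 CPM was 2.42-fold higher. The value was 1.14 ± 0.38 with the ratio as a covariate and 1.17 ± 0.36 in the restricted fit.

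The other 9 tubulins stayed near 0 in the same comparison, from -0.24 ± 0.25 (Tuba1c) to 0.19 ± 0.25 (Tuba4a) with a median of -0.03, beside a median of -0.02 for all genes. Each had an adjusted p of 1.00 by edgeR's quasi-likelihood test with Benjamini-Hochberg adjustment. Tubb3 was the only 1 of the 10 whose groups did not overlap, where 3.69% of all genes were higher without overlap. Against the mean of control replicates 1 and 2 the others were at 0.907 to 1.25. edgeR called 0 of 12548 genes (0%) here, with 346 at an unadjusted p under 0.05, and DESeq2 called 0.

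Of the set, 3 genes share exon bases with a gene on the opposite strand, and in each case the opposite gene held more counts. Over the 9 libraries Tuba1b had 2953 counts and the long noncoding gene Gm41396, with 87 shared exon bases, had 59469. Tuba4a had 2076 counts and Stk16, a protein kinase gene with 1379 shared bases, had 4791. Tubb4b had 2261 counts and Fam166a, with 121 shared bases, had 3771. The partners had negative log2 fold changes with palmitic acid, -0.54 ± 0.34, -0.81 ± 0.33 and -0.42 ± 0.27, while those of the tubulins were positive. The strand setting of the counting is not given in the sources used here, so these counts are uncertain, and how far it bears on the tubulins was not tested.

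Since Tubb3 marks neurons, the neuron markers were examined. Of 16 listed, 15 were in the table, 4 passed the filter and none was at 0 in all libraries. The defining ones were close to 0, with 2 counts over all 9 libraries for Rbfox3, 1 for Syt1, 5 for Elavl3, 1 for Elavl4, 12 for Syp and 14 for Snap25. The summed level of the list was 251 to 325 CPM in control, 134 to 327 in palmitic acid and 295 to 353 in palmitic acid + carnitine, most of it from the neurofilament gene Nefm, which has an opposite-strand gene. The 3 groups overlapped in this sum. The other 3 markers past the filter had positive log2 fold changes with palmitic acid, 0.54 ± 0.74 (SE) for Stmn2, 0.52 ± 0.54 for Mapt and 0.42 ± 0.37 for Nefl, and negative ones with carnitine added, as Tubb3 had, while Nefm had -0.33 ± 0.34 with palmitic acid. No neuron marker passed the test, and their part in the Tubb3 level was not tested. Markers of myoblasts and reserve cells, 7 of 8 past the filter, summed to 153 to 191, 215 to 249 and 185 to 209 CPM in control, palmitic acid and palmitic acid + carnitine. Those of fibroblasts, 6 of 8 past the filter, summed to 5125 to 7436, 7621 to 9220 and 6047 to 7162 CPM, and those of cycling cells, 8 of 10 past the filter, to 187 to 237, 153 to 194 and 182 to 248 CPM. The myotube, myoblast and fibroblast sums, which weigh abundant genes most, were higher in every palmitic acid library than in any other library. By gene, 8 of 12, 7 of 7 and 5 of 6 of these markers had positive log2 fold changes with palmitic acid against control. Their medians were 0.29, 0.47 and 0.22, beside 0.27 for genes lacking an opposite-strand gene. In the restricted fit the medians were 0.14, 0.18 and 0.11, and 0 were called. The part of these cell types in the tubulin levels was not tested.

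The genes most like Tubb3 over the 9 libraries, by Pearson correlation of log2 CPM among 6006 protein-coding genes lacking an opposite-strand gene, were Tmem19 (0.965), Lypla2 (0.948), Sdf4 (0.947), Slc3a2 (0.944) and Mogs (0.931). Tmem19, which encodes a membrane protein, had 3.10 ± 1.18, 11.9 ± 2.95 and 6.21 ± 2.07 CPM in control, palmitic acid and palmitic acid + carnitine (SD, n = 3). Lypla2, an acyl-protein thioesterase, had 10.8 ± 1.64, 25.8 ± 2.83 and 15.5 ± 2.59 CPM. Slc3a2, the heavy chain of amino acid transporters, had 51.2 ± 7.84, 78.9 ± 11.9 and 66.7 ± 5.86 CPM. All 3 had their highest mean with palmitic acid and an intermediate mean with carnitine, which is what the search selected. Of the tubulins, Tubb5 correlated most with Tubb3, at 0.79, and Tuba1c least, at 0.29.

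The 250 bases before the annotated start are shown for Tubb3, the gene that stood out in the comparison the set was chosen on (RefSeq, GRCm38.p6, chr8:123411303-123411552, + strand). The motifs searched on both strands were CANNTG, the E-box bound by myogenic factors, and CCAAT, the box bound by NF-Y, and capitals mark the match.
Tubb3: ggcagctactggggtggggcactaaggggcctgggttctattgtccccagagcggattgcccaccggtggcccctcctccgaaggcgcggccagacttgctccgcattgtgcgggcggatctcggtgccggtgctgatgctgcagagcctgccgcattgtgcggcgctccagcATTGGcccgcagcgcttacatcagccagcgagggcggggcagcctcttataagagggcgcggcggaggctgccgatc

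This window held 0 matches to CANNTG and 1 to CCAAT, which reads ATTGG on the strand shown. Promoters of 8 of the 10 tubulins were matched in the table, and 7 of these 8 held CANNTG and 5 held CCAAT. Of 32851 mouse promoters of the same length, 66.2% held CANNTG and 33.8% held CCAAT. A match describes the letters in this window only.

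Genes that make, modify and use microtubules were examined beside the tubulins. Of the 10 other tubulin genes listed, 5 were in the table and 2 passed the filter. Tubg1, the γ-tubulin that nucleates microtubules, had 23.7 ± 1.98, 31.8 ± 3.15 and 26.9 ± 4.19 CPM in control, palmitic acid and palmitic acid + carnitine. Tubg2, the other gene past the filter, went the other way, with 4.89 ± 3.00, 1.58 ± 0.996 and 5.15 ± 2.59 CPM. The log2 fold changes with palmitic acid against control were 0.42 ± 0.24 for Tubg1 and -1.66 ± 0.82 for Tubg2. In the fit of all genes 0 genes passed the test in any of 6 lists: other tubulins, 23 genes of tubulin folding and assembly, 16 of tubulin tail modification, 15 of nucleation, 25 of microtubule binding and dynamics and 17 of microtubule motors. With palmitic acid against control the medians of the last 5 lists were 0.09, 0.21, 0.03, 0.10 and 0.20, beside 0.06 for all genes and 0.54 for the 9 tubulins. That of the 2 other tubulin genes was -0.62. In the restricted fit the medians of the last 5 lists were -0.05, -0.04, -0.15, -0.20 and -0.03. Beside these, the median was -0.01 for all genes and 0.23 for the 6 tubulins other than Tubb3 in that fit.

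Among the folding genes, Ttc5, the factor of tubulin mRNA decay named above, had 4.86 ± 1.72, 7.08 ± 2.39 and 4.13 ± 0.944 CPM in the 3 groups (SD, n = 3), a log2 fold change of 0.56 ± 0.51 with palmitic acid. Cct3, a subunit of the chaperonin that folds tubulin, had the highest log2 fold change of its list, 0.64 ± 0.25, and Tbce, a cofactor that joins α- and β-tubulin, the lowest, -1.91 ± 0.51. Tbce has an opposite-strand gene and Cct3 has none. In the binding list Map1s, a microtubule-associated protein, had 34.6 ± 13.1, 69.2 ± 1.34 and 35.7 ± 12.9 CPM, and Clip2, a plus-end linker, had 21.6 ± 3.17, 42.6 ± 5.87 and 39.0 ± 1.45 CPM. Their log2 fold changes with palmitic acid were 0.99 ± 0.32 and 0.98 ± 0.24, with adjusted p-values of 0.161 and 0.139 by edgeR's quasi-likelihood test with Benjamini-Hochberg adjustment. Clip2 has an opposite-strand gene, and Map1s, which has none, was at 0.72 ± 0.25 in the restricted fit.

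Of the 12 tail-modification genes with no opposite-strand gene, 1 was called when only such genes were fitted. This was Ttl, the ligase that adds tyrosine back to the α-tubulin tail. Its log2 fold change was -1.19 ± 0.26 with palmitic acid against control, with an adjusted p of 0.0207 by edgeR's quasi-likelihood test with Benjamini-Hochberg adjustment, in a fit that called 1.10% of 5917 genes. With carnitine added to palmitic acid it was 1.09 ± 0.26, with an adjusted p of 0.0371 by the same test, where 0.963% of genes were called. In the fit of all genes the adjusted p was 0.181 and 0.179, and over all alternatives it ran from 0.00157 to 1.00 and from 0.0371 to 1.00. The levels of Ttl were 152, 154 and 89.9 CPM in control replicates 1, 2 and 3, 39.9, 85.3 and 88.5 CPM with palmitic acid, and 111, 130 and 121 CPM with palmitic acid + carnitine. They ran opposite to the strand ratio, with control replicate 3 near palmitic acid replicates 2 and 3, and with the ratio as a covariate the log2 fold changes were -0.08 ± 0.21 and -0.12 ± 0.22. The part of the ratio in this call was not tested further.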

How the data were processed

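Stranded mRNA libraries of 9 C2C12 samples in 3 groups were used, grouped by the treatment label. The deposited table holds raw counts per gene and FPKM, per the file headers. Tools given in the submitters' processing notes are HTSeq 0.13.5, edgeR, HISAT2 2.2.0, Trim Galore 0.6.4 and Bowtie2 2.4.2, with builds Rnor_6.0, GRCm39 and GRCh38. The strand setting and the rule for reads that fit several genes are not given in the sources used here.

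The deposited counts were fitted with edgeR 4.0.16 (R 4.3.3; TMM, filterByExpr with a minimum count of 10 and a minimum total of 15, glmQLFit and glmQLFTest, two-sided) in 1 fit of the 9 libraries with group as the sole factor. Benjamini-Hochberg adjustment ran over all genes, with a call at an adjusted p under 0.05. Alternatives used DESeq2 1.42.0 and limma 3.58.1 on log2(FPKM + 1). Depth was 2.31 to 5.14 M counts per library, and no pair of libraries of a group agreed within sampling noise (chi-square per degree of freedom of 3.65 or more). The edgeR step was tested on simulated data.

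Strand relations came from GENCODE M21 (GRCm38), joined by gene ID for 22506 of 22831 genes. Genes lacking an opposite-strand gene were protein-coding genes whose exons no gene on the other strand covered (9523 genes). A noncoding gene was opposite when at least 100 exon bases overlapped (1689 genes). Coding sequences came from GENCODE M21, promoters from RefSeq (GRCm38.p6), aligned with Biopython 1.88.

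The members, gene lists and tests were chosen with earlier results of these data known. All 10 tubulins were named, as were called genes of other lists, otherwise the 2 highest and 2 lowest of each list in a comparison (not all are given in the text), and the 5 genes most like Tubb3. Ttc5 and Tubg1 were among these. The tail sequences of the α-tubulins are not reported here.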

Additional observations from a re-analysis of the deposited data

How the results depend on the processing

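Counts of called genes depended on the settings. For palmitic acid against control, 0 calls became 474 with DESeq2, 1118 without a filter, 65 for genes lacking an opposite-strand gene, 2 for these with the strand ratio as a covariate, 2369 without control replicate 3 and palmitic acid replicate 1, and 0 to 768 when 1 library was left out, the most without control replicate 3. For palmitic acid + carnitine against palmitic acid, 0 became 817 with DESeq2, 1366 without a filter, 1 with limma, 57 for genes lacking an opposite-strand gene, 1685 without the same libraries, and 0 to 6 when 1 was left out. For palmitic acid + carnitine against control, 0 became 5 without a filter, 9 without the same libraries and 2 for genes lacking an opposite-strand gene with the covariate. With the replicate block the number of calls was 0 in each comparison and Tubb3 was at 1.91 with palmitic acid. Replicate numbers showed no clear pairing of the libraries: 3 of 9 correlations of deviations passed 0.1 and 1 of 9 libraries correlated best with its own number. With 3 libraries per group this cannot show that they were unpaired.

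Tubb3 kept its direction in all settings, from 1.62 to 2.09 with palmitic acid, -1.10 to -0.44 with carnitine added and 0.88 to 1.26 with palmitic acid + carnitine against control. Small log2 fold changes of other tubulins changed sign. With palmitic acid against control, Tubb2b was -0.080 with the covariate and -0.15 with it among genes that lack an opposite-strand gene, and Tuba1c was -0.14 among such genes without it. With carnitine added, Tubb2b was 0.11 with the covariate, and the covariate among genes that lack an opposite-strand gene gave 0.21 for Tubb2b and 0.040 for Tubb2a. For palmitic acid + carnitine against control, the covariate gave 0.032 for Tubb2a, 0.027 for Tubb2b, 0.063 for Tubb6 and 0.044 for Tuba1b. The genes that lack an opposite-strand gene gave 0.020 for Tubb2b and 0.060 for Tubb6, and with the covariate 0.061 for Tubb2a, 0.058 for Tubb2b and 0.093 for Tubb6. The block gave 0.012 for Tubb6. Leaving out both libraries gave 0.30 for Tubb2a, 0.22 for Tubb2b, and 0.27 for Tubb6 and Tuba1b. Leaving out 1 library or both gave ranges of -0.32 to 0.30 for Tubb2a, -0.26 to 0.22 for Tubb2b, -0.14 to 0.32 for Tubb4b, -0.028 to 0.33 for Tubb5, -0.12 to 0.27 for Tubb6, -0.21 to 0.054 for Tuba1a and -0.27 to 0.27 for Tuba1b, and, with carnitine added, -0.26 to 0.068 for Tuba4a. The causes were not tested. Tuba1b, Tuba4a and Tubb4b have no value in fits of genes lacking an opposite-strand gene. The fit of such genes with the covariate and the alternatives for the share of Tubb3 were chosen after seeing the data. Tubb3 rests on 9 to 193 counts per library, which limits its precision.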
